A study of Mus musculus with 6 samples.

Results

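The serotonin receptor family of the mouse dorsal root ganglion (DRG), the cluster of sensory neuron cell bodies beside the spinal cord, was followed through Htr1a, Htr1b, Htr1d, Htr1f, Htr2a, Htr2c, Htr3a, Htr3b, Htr4 and Htr7. These 10 members were the rows of a read count table whose Ensembl identifiers map to the listed symbols, and they made up 10 of its 47937 rows. The annotation holds 14 serotonin receptor genes, and the other 4 (Htr2b, Htr5a, Htr5b and Htr6) were read beside the members. Bulk RNA sequencing (RNAseq) covered DRGs of 3 control and 3 Tlx3cko mice of the C57BL/6 strain, all about 2 months old. The labels give the controls as wild type, with no allele listed, and the study's methods name Tlx3F/F littermates as controls for behaviour, so whether the sequenced controls carried the floxed allele is uncertain. The labels give the Tlx3cko mice as Tlx3f/f;SNS-cre, in which both copies of the homeobox gene Tlx3 carry sites for Cre. SNS is the sodium channel Nav1.8, whose promoter drives Cre in most nociceptors from late embryonic life, so Tlx3 in other DRG neurons is not a target. Cre is listed in 1 group alone, so an effect of Cre itself, or of the floxed allele if the controls lacked it, cannot be told apart from loss of Tlx3. Library totals ran from 11458299 to 18775628 counts.

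Serotonin released by platelets, mast cells and descending nerve fibres acts on sensory neurons through receptors of several kinds. Htr1 receptors couple to Gi/o proteins and lower cyclic AMP, Htr2 receptors couple to Gq and phospholipase C, Htr4 and Htr7 couple to Gs and raise cyclic AMP, and Htr3a and Htr3b are subunits of a cation channel opened directly by serotonin. In the DRG these receptors are known for parts in pain, itch and headache, and DRG neurons of different kinds carry different sets of them.

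The tissue label was checked against 8 sensory neuron markers. All 8 were detected in every library, and the most abundant, the neuronal tubulin Tubb3, had 44020 to 49550 normalized counts in control and 51040 to 56520 in Tlx3cko. Normalized counts are counts scaled to a common library size of 14974185. Of the 8 markers 0 fell and 1 rose by edgeR's quasi-likelihood test, namely the sodium channel Scn10a (log2 fold change 0.43 ± 0.07 SE, adjusted p = 0.00281). DESeq2 and limma-voom each called 0 of the 8 lower, and 1 was lower at an unadjusted p under 0.05.

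Male and female libraries were spread unevenly over the genotypes. Xist, transcribed from the inactive X chromosome, had 591 counts in control replicate 1, 493 in control replicate 2 and 1 in control replicate 3, against 2, 0 and 0 in Tlx3cko. The Y-linked Ddx3y had 0, 0 and 525 counts in the controls against 352, 273 and 390 in Tlx3cko. Control replicates 1 and 2 thus carried the RNA of females, whereas control replicate 3 and all 3 Tlx3cko libraries carried that of males. A fit with a sex term was run as 1 of the alternatives. As females occurred among the controls alone, its genotype value is that of control replicate 3, the 1 male control, against the 3 Tlx3cko libraries, and its spread comes from the other 5 libraries and the pooling over genes. It therefore adds no evidence to the male values themselves, and a call lost with it can come from the lower precision of 1 control.

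Tlx3 itself was read first. It had 1828, 2262 and 2433 counts in control replicates 1 to 3 and 1717, 1052 and 1475 in Tlx3cko replicates 1 to 3. After scaling, every Tlx3cko library lay below every control library, at 1495 ± 141 normalized counts (SD, n = 3) against 2057 ± 173, or 72.7% of control. The log2 fold change was -0.46 ± 0.09 (SE), with adjusted p = 0.0122 by edgeR (quasi-likelihood test, Benjamini-Hochberg over all genes tested). The counts cover the whole gene, so reads from the deleted and the retained part were not told apart. The direction held in all 15 alternative fits, but the call was lost with the sex term (-0.376, adjusted p = 0.223) and without any of control replicate 2 and Tlx3cko replicates 2 and 3 (highest adjusted p = 0.0916). Over the alternatives the adjusted p ran from 3.25e-05 to 0.223.

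The comparison of the genotypes asked which serotonin receptor genes of the DRG change when Tlx3 is removed from Nav1.8 neurons. Htr1a, Htr1f and Htr4 fell in Tlx3cko, to between 26.3% and 37.3% of their control means, whereas the channel subunits Htr3a and Htr3b, the Gq-coupled Htr2a and the Gs-coupled Htr7 had means between 100.3% and 118% of control with no call. All 10 members passed the filter of at least 10 counts over the 6 libraries. Of these, 3 fell and 0 rose at adjusted p under 0.05, where 2.56% of the 20006 genes tested fell and 1.69% rose. Only Htr1b was higher at an unadjusted p under 0.05 (1 gene), and DESeq2 and limma-voom also called 3 members lower and 0 higher. In bulk RNA, fewer cells of a type and less RNA per cell cannot be told apart. The adjusted p-values measure the spread between these libraries, and an exact two-sided permutation test of 3 against 3 cannot give a p below 0.1.

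**Figure D1:**
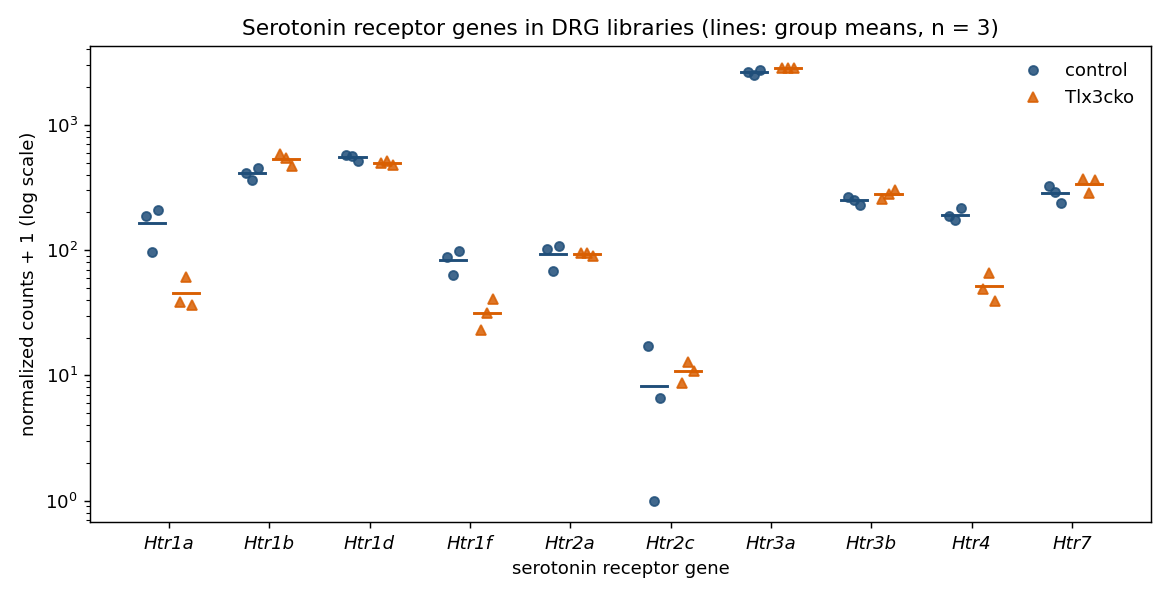
Normalized counts of the 10 serotonin receptor genes (log axis, counts plus 1), with circles for the 3 control libraries, triangles for the 3 Tlx3cko libraries and lines for group means. The Tlx3cko points of Htr1a, Htr1f and Htr4 all sit below the control points, while the groups of Htr2a, Htr2c, Htr3b and Htr7 overlap.

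Among the Gi/o-coupled receptors, Htr1a, which inhibits many of the neurons that carry it, had 172, 95 and 261 counts in control replicates 1 to 3 and 39, 46 and 36 in Tlx3cko replicates 1 to 3. The groups did not overlap, and control replicate 2 was the lowest control. In normalized counts the means were 163 ± 60.1 (SD, n = 3) in control and 44.4 ± 13.8 in Tlx3cko. The log2 fold change was -1.89 ± 0.31 (SE; 95% confidence interval -2.56 to -1.23; adjusted p = 0.00289). Control replicate 3, the male control, had 208.2 normalized counts against 35.4 to 60.4 in the male Tlx3cko libraries, a comparison with 1 control.

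Htr1f, a Gi/o-coupled receptor known as the target of the migraine drug lasmiditan, had 80, 63 and 121 counts in the controls against 23, 23 and 40 in Tlx3cko. The highest Tlx3cko library, replicate 3, stayed below the lowest control, replicate 2, also after scaling (39.4 against 62.8 normalized counts). The means were 81.9 ± 17.3 and 30.6 ± 8.62 normalized counts (SD, n = 3), a log2 fold change of -1.42 ± 0.29 (SE; 95% confidence interval -2.05 to -0.79; adjusted p = 0.0131). Htr1f was the least stable of the 3 calls. It lost its call without control replicate 3 (-1.28, adjusted p = 0.0699) and without Tlx3cko replicate 2 (-1.40, adjusted p = 0.056), in a range over the alternatives from 0.000167 to 0.0699.

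In GRCm38, the build called mm10, Htr1a (ENSMUSG00000021721) lies at chr13:105443639-105448122 on the plus strand and Htr1f (ENSMUSG00000050783) at chr16:64924729-65105854 on the minus strand. Exons of no other annotated gene overlap theirs on either strand, and no stretch of 100 bases of their exons recurs in another gene's exons.

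The other Gi/o-coupled members, Htr1b and Htr1d, are the receptors on which triptans act. Htr1b had 384, 364 and 566 counts in control against 612, 412 and 472 in Tlx3cko. After scaling, all 3 Tlx3cko libraries (464 to 589 normalized counts) lay above all 3 controls (363 to 452), but the log2 fold change of 0.37 ± 0.13 (SE) did not pass the threshold (adjusted p = 0.144). In the annotation 18.0% of the Htr1b exon bases lie under exons of D430036J16Rik on the other strand. Whether the counting used strand is not given in the sources used here, so reads of these 2 genes may not have been told apart. Htr1d had 529, 560 and 648 counts in control against 516, 388 and 488 in Tlx3cko. Its scaled Tlx3cko values (480 to 509) were just under the controls (517 to 571), with a log2 fold change of -0.15 ± 0.10 (adjusted p = 0.595) and a 95% confidence interval from -0.37 to 0.07.

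The Gq-coupled receptors were low in these libraries. Htr2a, a receptor tied to the excitation of nociceptors by serotonin, had 94, 67 and 134 counts in control against 98, 71 and 90 in Tlx3cko. The Tlx3cko libraries fell inside the control range, at 92.0 ± 3.04 against 91.7 ± 21.7 normalized counts (SD, n = 3), and the 95% confidence interval of the log2 fold change ran from -0.48 to 0.48 (adjusted p = 0.998). Htr2c, best known from the brain, had 15, 0 and 7 counts in control against 8, 9 and 10 in Tlx3cko. The 0 in control replicate 2 allows up to 3 counts, and the interval from -1.46 to 2.34 on the log2 scale left the direction undetectable at this depth (adjusted p = 0.892).

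Summed per kilobase of exon, the channel subunits had the highest level of the receptor classes through Htr3a, while Htr3b alone was below Htr1d. Htr3a, which can form the channel without a partner, had 2468, 2509 and 3451 counts in control against 2977, 2179 and 2884 in Tlx3cko. Scaled, the Tlx3cko libraries (2838 to 2865 normalized counts) sat just above the controls (2502 to 2753), yet the log2 fold change was 0.11 ± 0.07 (SE) with adjusted p = 0.556. The 95% confidence interval, from -0.04 to 0.27, was the narrowest of the 10 members. Htr3b, which needs Htr3a to form a channel, had 247, 250 and 287 counts in control against 267, 214 and 305 in Tlx3cko. Its groups overlapped after scaling, and its log2 fold change was 0.17 ± 0.13 (adjusted p = 0.651). The genes neighbour each other on the minus strand of chromosome 9, Htr3a at chr9:48899213-48911099 and Htr3b at chr9:48935008-48964990. The level of Htr3b per level of Htr3a, both per exon length, was 0.0815 ± 0.00833 in control and 0.0846 ± 0.00694 in Tlx3cko (SD, n = 3), a difference smaller than the spread of the libraries.

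The Gs-coupled receptors differed from each other. Htr4 (ENSMUSG00000026322, chr18:62324204-62496577, plus strand), known for exciting enteric neurons, had 173, 172 and 270 counts in control replicates 1 to 3 and 50, 49 and 39 in Tlx3cko replicates 1 to 3. The groups were far apart, with the highest Tlx3cko library at 64.3 normalized counts and the lowest control at 171.5. The means were 191 ± 22.3 and 50.3 ± 13.1 normalized counts (SD, n = 3), a log2 fold change of -1.94 ± 0.22 (SE; 95% confidence interval -2.42 to -1.47; adjusted p = 0.000158). The male control library had 215.4 normalized counts against 38.4 to 64.3 in the male Tlx3cko libraries, again with 1 control.

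Htr7, a Gs-coupled receptor that takes part in serotonin-evoked itch, had 302, 293 and 295 counts in control against 382, 216 and 366 in Tlx3cko. Tlx3cko replicates 1 and 3 were above all controls after scaling, whereas replicate 2 (283 normalized counts) was inside the control range of 235 to 326. The log2 fold change was 0.25 ± 0.15 (SE), with a 95% confidence interval from -0.08 to 0.58 and adjusted p = 0.522. That interval takes no account of sex. The male control library (235 normalized counts) was below all 3 male Tlx3cko libraries (283 to 368), and the log2 fold change from that 1 control, the value of the sex term fit, was 0.522. With single libraries left out of the main fit it ran from 0.13 to 0.368, and adjusted p over all alternatives from 0.313 to 0.813. The level of Htr4 per level of Htr7, each per exon length, was 0.397, 0.407 and 0.634 for control replicates 1 to 3, whereas Tlx3cko replicates 1 to 3 gave 0.0907, 0.157 and 0.0738. The balance of the Gs-coupled pair was therefore lower in every Tlx3cko library than in any control, a description for which no test was run.

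**Figure D2:**
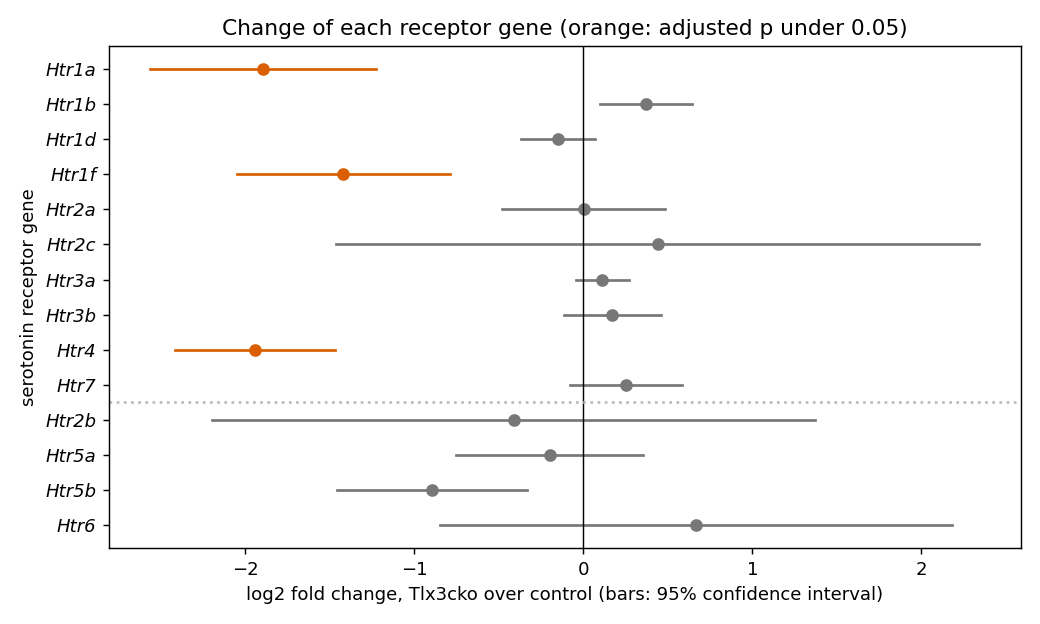
Log2 fold change of Tlx3cko over control for the 10 members and, under the dotted line, the other 4 serotonin receptor genes, with bars for the 95% confidence interval and orange for adjusted p under 0.05. Htr1a (-1.89), Htr1f (-1.42) and Htr4 (-1.94) are the orange points on the left, and Htr2b, Htr2c and Htr6 have the widest bars.

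Counted without the test, 4 members had all Tlx3cko libraries below all controls (Htr1a, Htr1d, Htr1f and Htr4) and 2 had them all above (Htr1b and Htr3a). Over all genes tested, 10.8% did not overlap in the lower direction and 8.87% in the higher. The median log2 fold change of the 10 members was 0.06, and that of all genes tested was -0.0036. The sign of the log2 fold change was negative for 4 members and positive for 6, where Htr2a counts among the positive and turns negative when scaled by library totals alone.

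Of the other 4 serotonin receptor genes, 0 passed the test in edgeR, DESeq2 or limma-voom, and 1 did so at an unadjusted p under 0.05. That gene was Htr5b, with 68, 112 and 108 counts in control against 54, 27 and 58 in Tlx3cko. Its groups did not overlap after scaling, and its log2 fold change was -0.90 ± 0.26 (SE; adjusted p = 0.0808). Htr5a had 61 to 85 counts in control and 37 to 77 in Tlx3cko (log2 fold change -0.20, adjusted p = 0.816). Htr2b (2 to 8 counts) and Htr6 (2 to 16 counts) were near the lower limit of what these libraries resolve, and 11.8% of the Htr2b exon bases lie under exons of Psmd1 on the other strand.

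Levels of different genes were set side by side per kilobase of exon. In control, Htr3a led with 1267 ± 61.0 normalized counts per kilobase (SD, n = 3), followed by Htr1d (171 ± 8.85), Htr3b (103 ± 7.82), Htr1b (86.7 ± 9.40) and Htr7 (83.7 ± 13.5). Htr3a and Htr1d were each apart from the next gene in every control library. Htr3b overlapped with Htr1b, and Htr1b with Htr7. Below them came Htr5b (46.7 ± 10.1), Htr4 (39.0 ± 4.54), Htr1a (36.3 ± 13.4) and Htr1f (31.8 ± 6.70), whose neighbours overlapped throughout. Htr2a (16.4 ± 3.88) and Htr5a (12.3 ± 0.901) overlapped too, and Htr6, Htr2b and Htr2c were below 3 on the control mean.

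In Tlx3cko the top of this order was the same, from Htr3a (1370 ± 6.79 normalized counts per kilobase) through Htr1d, Htr3b and Htr1b to Htr7 (99.2 ± 13.7). Htr4 stood at place 7 of the 14 genes in control and at place 10 in Tlx3cko (10.2 ± 2.67), and Htr1a at place 8 and place 11 (9.91 ± 3.08). Htr2a stood at place 10 and place 7, with 16.4 ± 0.542 in Tlx3cko and nearly the same level in control, and Htr1f at place 9 and place 8 (11.9 ± 3.34). In Tlx3cko the values of Htr1f, Htr5a, Htr4 and Htr1a overlapped, so the places among them are not set beyond the spread of the libraries.

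**Figure D3:**
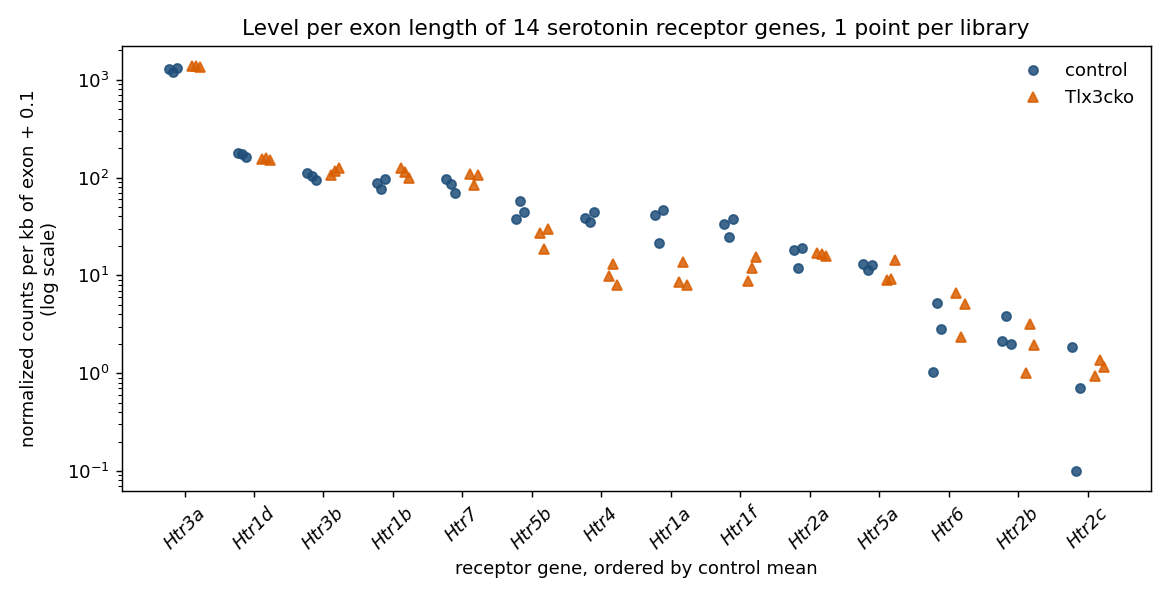
Normalized counts per kilobase of exon (log axis, plus 0.1) of the 14 serotonin receptor genes in order of their control mean, with circles for control and triangles for Tlx3cko libraries. Htr3a lies at 1201 or above in all 6 libraries, and Htr4, Htr1a and Htr1f lie at 15.3 or below in the Tlx3cko libraries.

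Htr3a made up most of the family's sum, and the sum over the 10 members overlapped between the groups. It was 1884, 1734 and 1890 normalized counts per kilobase in the controls and 1914, 1902 and 1889 in Tlx3cko. The share of Htr3a in that sum was 69.0% ± 1.04 in control and 72.0% ± 0.172 in Tlx3cko (SD, n = 3). Htr4 held 2.12% ± 0.176 in control and 0.538% ± 0.139 in Tlx3cko, and Htr1a 1.96% ± 0.653 and 0.521% ± 0.162. By coupling, the Gi/o sum was 326 ± 25.5 in control and 289 ± 15.1 in Tlx3cko, the Gs sum 123 ± 10.5 and 109 ± 11.4, the Gq sum 17.1 ± 4.52 and 17.5 ± 0.540, and the channel sum 1370 ± 58.3 and 1486 ± 3.64. The channel sums did not overlap between the groups, whereas the Gi/o, Gs and Gq sums did, and no test was run on these sums.

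Genes that make, move or break down serotonin were mostly without a call. Of 10 genes, 1 rose and 0 fell by edgeR, with a median log2 fold change of 0.08, and 1 gene was lower at an unadjusted p under 0.05, and DESeq2 called 1 lower while limma-voom called 0. The gene that rose was Slc29a4, a transporter that clears serotonin and other monoamines at low affinity. It had 1010, 783 and 1269 counts in control against 1895, 1186 and 1809 in Tlx3cko, with no overlap after scaling (781 to 1090 against 1556 to 1824 normalized counts). Its log2 fold change was 0.84 ± 0.12 (SE; adjusted p = 0.000925). The serotonin transporter Slc6a4 (0 to 19 counts) and the synthesis enzymes Tph1 (0 to 7) and Tph2 (4 to 21) were scarce in every library. The oxidases Maoa (-0.56 ± 0.15, adjusted p = 0.0601) and Maob (0.70 ± 0.25, adjusted p = 0.179) had groups that did not overlap, in opposite directions, but did not pass the threshold; they and the scarce genes were chosen after their values were seen.

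Of 10 genes for proteins that bind or switch off the receptors, 3 fell and 1 rose in RNA, and the median log2 fold change was -0.11. With the sex term, and so with 1 control, 1 was called lower and 0 higher. The kinases Grk2 (-0.37 ± 0.07, adjusted p = 0.00755) and Grk3 (-0.66 ± 0.13, adjusted p = 0.0119), which phosphorylate active receptors, fell together with the caveolar protein Cav1 (-0.43 ± 0.11, adjusted p = 0.0442). The arrestin Arrb1, which uncouples phosphorylated receptors, rose (0.37 ± 0.09, adjusted p = 0.0393). Grk3 had 373, 345 and 537 counts in control against 273, 168 and 263 in Tlx3cko, without overlap after scaling. Several of these calls were lost with fewer libraries, while the directions held in all 15 alternatives. Grk2 lost its call without Tlx3cko replicate 3 (adjusted p = 0.0657) and with the sex term (log2 fold change -0.316, adjusted p = 0.15, the highest of its alternatives, which began at 0.000106). Grk3 lost it without control replicate 3 or Tlx3cko replicate 2 (highest adjusted p = 0.0766, lowest over its alternatives 0.000271). Arrb1 kept its call only without control replicate 3, and Cav1 only without Tlx3cko replicate 1, when single libraries were left out; their adjusted p over all alternatives ran from 0.000475 to 0.597 and from 0.0243 to 0.201. The replicate block and the sex term also ended the Arrb1 and Cav1 calls, with log2 fold changes of 0.186 and -0.462 in the sex term fit.

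Downstream of the Gi/o-coupled receptors, 1 of 8 genes fell and 0 rose by edgeR, with a median log2 fold change of -0.15. Unadjusted p-values under 0.05 were found for 2 lower genes and 1 higher, DESeq2 called 1 higher and limma-voom 0. Gnao1, the G protein subunit Go of neurons and the most abundant gene of the list, had 15680 to 16500 normalized counts in control and 12700 to 12900 in Tlx3cko. The groups were separated by a wide margin for so small a change (log2 fold change -0.34 ± 0.06, adjusted p = 0.00661). Without Tlx3cko replicate 2 the call was lost (adjusted p = 0.0583, in a range over the alternatives from 5.22e-05).

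Downstream of the Gq-coupled receptors, 3 of 13 genes fell and 2 rose, with a median log2 fold change of -0.11. DESeq2 called 5 lower and 2 higher, limma-voom 3 lower and 2 higher, and the sex term left 3 lower and 1 higher, while an unadjusted p under 0.05 was met by 5 lower and 3 higher. Plcb3, the most abundant phospholipase C beta of the list, fell from 13010 ± 556 to 8129 ± 552 normalized counts (SD, n = 3; log2 fold change -0.68 ± 0.07, adjusted p = 0.000118). Plcb1 went the other way, from 348, 321 and 495 counts to 781, 628 and 887 (1.17 ± 0.11, adjusted p = 5.2e-05), and every Tlx3cko library was above every control. Of the kinases activated by this pathway, Prkcd fell (-0.92 ± 0.07, adjusted p = 9.38e-06) and so did Prkca (-0.40 ± 0.08, adjusted p = 0.013). The inositol trisphosphate receptor Itpr3 rose (0.37 ± 0.09, adjusted p = 0.0462). Prkca lost its call without control replicate 3 or Tlx3cko replicate 3 (highest adjusted p = 0.0694, lowest over its alternatives 8.96e-05). Itpr3 lost its call with the replicate block, with the sex term (log2 fold change 0.342), with scaling by library totals, and without control replicates 2 or 3 or Tlx3cko replicates 2 or 3 (adjusted p over its alternatives 0.00595 to 0.356).

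Downstream of the Gs-coupled receptors 0 of 15 genes passed edgeR's test, with a median log2 fold change of -0.02. At an unadjusted p under 0.05 there were 3 higher and 0 lower, DESeq2 called 1 higher and limma-voom 0. The most abundant gene, the stimulatory G protein subunit Gnas, had 34750 to 37450 normalized counts in control and 37800 to 38440 in Tlx3cko (log2 fold change 0.10 ± 0.06, adjusted p = 0.556). Of the 3 TRP channels tied to serotonin itch 1 rose and 0 fell, and their median log2 fold change was -0.36. The capsaicin receptor Trpv1 had 2217, 1893 and 3046 counts in control against 5784, 3772 and 5069 in Tlx3cko, all above the controls (1.21 ± 0.10, adjusted p = 1.37e-05). Trpa1 (-0.36 ± 0.17, adjusted p = 0.333) and Trpv4 (-0.43 ± 0.33, adjusted p = 0.655) were not called, and 1 of the 3 was lower at an unadjusted p under 0.05, while DESeq2 and limma-voom called 0 lower.

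The genes whose profile over the 6 libraries was most like that of each member that fell were found by the root mean square (RMS) difference of centred log2 normalized counts. For Htr4 they were Mrgprd (RMS 0.15), Sstr2 (0.179), Gm29529 (0.197), Ada (0.198) and A3galt2 (0.23), out of 13372 genes that averaged 50 normalized counts or more. For Htr1a they were Slc16a12 (0.273), Htr4 (0.294), Ston2 (0.339), Nt5e (0.373) and Gm29529 (0.378). For Htr1f they were Slc16a12 (0.198), Ston2 (0.212), Stom (0.23), Gm16976 (0.248) and Gm26626 (0.252). Htr4 was thus among the nearest genes of Htr1a, Gm29529 was shared by Htr1a and Htr4, and Slc16a12 and Ston2 were shared by Htr1a and Htr1f. As their profiles were matched to members that fell, a fall in Tlx3cko was fixed by the choice, and their log2 fold changes ran from -1.08 (Gm26626) to -1.94 (Htr4). Gm26626 (adjusted p = 0.0208) lost its call without control replicates 1 or 3 or Tlx3cko replicates 1 or 2 (0.0604 to 0.0738) and with the sex term (-1.09, adjusted p = 0.143, in a range over the alternatives from 1.9e-06). Between the members, the RMS difference was 0.436 for Htr1a with Htr1f and 0.468 for Htr4 with Htr1f.

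Markers of neuron classes moved beside Htr1a, Htr1f and Htr4. Of the NP1 markers (nonpeptidergic neurons with Mrgprd), 3 of 3 fell, and their summed normalized counts were 3548, 4834 and 5457 in control and 1255, 1437 and 1075 in Tlx3cko. Their most abundant gene, the beta-alanine receptor Mrgprd, had a log2 fold change of -1.81 ± 0.16 (adjusted p = 2.63e-05), near those of Htr4 and Htr1a, and the other NP1 markers were Lpar3 and Lpar5. Of the NP3 itch neuron markers 6 of 7 fell (Nppb, Sst, Il31ra, Cysltr2, Osmr and Jak1), with sums of 7824, 7423 and 8816 in control against 4929, 5233 and 4926 in Tlx3cko. Nppb, the peptide that defines these neurons, had 251, 269 and 392 counts in control against 2, 2 and 3 in Tlx3cko, and Jak1, the most abundant of the list, had a log2 fold change of -0.38 ± 0.08 (adjusted p = 0.0145). Jak1 lost its call without control replicate 3 or Tlx3cko replicate 3 (highest adjusted p = 0.0864, lowest over the alternatives 0.000222).

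Of the NP2 markers 2 of 3 fell (Mrgpra3, -4.04 ± 0.34, adjusted p = 1.47e-05, and Hrh1), with sums of 770, 619 and 499 in control against 535, 407 and 457 in Tlx3cko. The NP2 marker Mrgprx1, the most abundant over the 6 libraries though not in the controls, had all Tlx3cko libraries (374 to 495 normalized counts) above all controls (124 to 358). Its log2 fold change of 0.95 ± 0.27 missed the threshold in the main fit (adjusted p = 0.0798) and passed it in 4 of 15 alternatives, namely limma-voom (0.0275), without the count filter (1.05e-08), with the replicate block (0.00488) and without control replicate 1 (0.00124), in a range over the alternatives up to 0.29. Of the markers of low-threshold C fibres with tyrosine hydroxylase 3 of 3 fell, led in abundance by Th (-2.91 ± 0.21, adjusted p = 5.54e-06), with sums of 1412, 2778 and 2384 in control against 512, 402 and 399 in Tlx3cko. Of the peptidergic markers 1 of 5 rose and 0 fell, and 2 of the 5 had a negative log2 fold change. The gene that rose, Calca, was the most abundant and had a log2 fold change of 0.47 ± 0.07 (adjusted p = 0.00144), and the sums of the list, to which it gave the most counts, were 16210, 17820 and 16710 against 23960, 20890 and 22520. Of the myelinated neuron markers 3 of 8 rose (Nefh, Nefm and Pvalb) and 0 fell, with sums of 215700, 214900 and 214800 against 255300, 300400 and 290500. Their most abundant gene, Nefm, rose by 0.40 ± 0.07 (adjusted p = 0.0047), a call lost with the sex term at nearly the same log2 fold change (0.403, adjusted p = 0.0588, in a range over the alternatives from 5.53e-06). So was that of Nefh (0.362 against 0.357 in the main fit, adjusted p = 0.0614, from 1.66e-05), and Pvalb lost its call without control replicate 2 (0.056) or control replicate 3 (0.0534, in a range from 3.41e-07). For the peptidergic and the myelinated list, DESeq2, limma-voom and unadjusted p-values under 0.05 also gave 0 lower. None of the markers of these neuron classes was at 0 in all libraries. The part of these neuron classes in the fall of the receptors was not tested.

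Markers of other cells were read in the same way. Skeletal muscle markers, with 1 of 5 higher (the myosin Myh4, the most abundant over the 6 libraries though not in the controls), summed to 1507, 460 and 87.7 normalized counts in control and 2536, 2048 and 1301 in Tlx3cko, with overlap between the groups through control replicate 1. The sum of the male control (87.7) was below that of each male Tlx3cko library. At an unadjusted p under 0.05, 3 of the 5 muscle markers were higher and 0 lower. DESeq2 called 0 of them higher and limma-voom 1. Myh4 had a log2 fold change of 2.87 ± 0.56 (adjusted p = 0.0101), lost without control replicate 2 (adjusted p = 0.0571) and in DESeq2 (adjusted p = 0.0639, in a range over the alternatives from 8.15e-87). The log2 fold change of Myh4 was 3.90 without control replicate 1 (adjusted p = 0.00124). In the sex term fit, and so with 1 control, it was 5.62. Of the endothelial markers 1 of 3 rose, Pecam1 (0.66 ± 0.15, adjusted p = 0.0202), with sums of 546, 469 and 428 against 613, 688 and 699. It lost its call without any of control replicate 3 and Tlx3cko replicates 2 and 3 (highest adjusted p = 0.101, lowest over the alternatives 0.00187) and with the sex term (log2 fold change 0.845, adjusted p = 0.0583). Of the 5 spinal cord markers, 2 were tested and 1 fell, the most abundant, Pax2, with 26, 34 and 24 counts in control against 5, 1 and 6 in Tlx3cko (-2.65 ± 0.56, adjusted p = 0.0164). It lost its call without control replicate 2 or Tlx3cko replicate 2 (highest adjusted p = 0.0896) and with the sex term (log2 fold change -2.16, adjusted p = 0.205, from 0.000453 over the alternatives), and the summed spinal cord counts were at most 44.9 in any library. The defining inhibitory markers Gad2, Slc32a1 and Slc6a5 had 0 to 4 counts per library. The part of these cells in the receptor changes was not tested.

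Mast cells, which store serotonin, left little RNA, and the most abundant of their 4 markers over the 6 libraries was Mcpt4. Their summed normalized counts were 60.44, 95.75 and 52.65 in control and 47.16, 49.86 and 14.76 in Tlx3cko. These sums did not overlap between the groups, and all 4 markers had a negative log2 fold change. Of the markers of satellite glia (Apoe), Schwann cells (Pmp22), vascular smooth muscle (Tagln), mast cells, immune cells (Lyz2) and blood (Hba-a1), each named with its most abundant gene over the 6 libraries, 0 passed edgeR's test. At an unadjusted p under 0.05 there were 1 higher in satellite glia, 2 higher and 1 lower in Schwann cells, 1 higher in smooth muscle, and 1 lower each in mast cells, immune cells and blood. DESeq2 called 1 higher in satellite glia and 2 higher and 1 lower in Schwann cells, and limma-voom called 1 lower in Schwann cells. The summed immune markers were 1395, 1772 and 1106 in control and 820, 854 and 1261 in Tlx3cko, and the blood markers overlapped between the groups.

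Upstream sequences are shown for Htr1a and Htr1f, members that fell, and for Htr3b, a member without a call, because TAAT is the core that many homeodomain proteins, the class of Tlx3, read in DNA. The 250 bases before the RefSeq start (GRCm38.p6) were searched on both strands for TAAT, with overlapping matches counted, and 54.9% of 32851 promoters hold it in a window of that length. The longer forms TAATTG and TAATTA, which contain TAAT, are held by 7.17% and 4.84%. Htr1a had 0 matches to TAAT, Htr1f had 1, and Htr3b had 8, among them 1 TAATTG. Of the other members with a window, all without a call, Htr7 had 0, Htr1b 1, Htr2a and Htr2c 2 each and Htr1d 3. The matches of Htr2a formed 1 TAATTA. Htr3b thus had the most matches of the uncalled members with a window and does not stand for them. Htr4, the member with the largest fall, had no window here. The printed sequences therefore give no comparison of members that fell with members that did not. A match describes letters only, and no match says only that they are not in this window. Capitals mark TAAT on either strand, and each sequence is printed 5′ to 3′ up to the annotated gene start, from chr13:105443443-105443638 on the plus strand, chr16:65105855-65106034 on the minus strand and chr9:48964991-48965240 on the minus strand.
Htr1a: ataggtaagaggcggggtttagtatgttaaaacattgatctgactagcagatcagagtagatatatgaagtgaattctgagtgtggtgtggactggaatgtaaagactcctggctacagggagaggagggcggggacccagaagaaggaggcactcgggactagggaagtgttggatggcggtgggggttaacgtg
Htr1f: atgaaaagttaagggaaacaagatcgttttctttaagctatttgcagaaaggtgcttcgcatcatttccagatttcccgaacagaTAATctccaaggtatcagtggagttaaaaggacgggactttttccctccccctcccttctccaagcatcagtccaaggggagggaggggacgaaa
Htr3b: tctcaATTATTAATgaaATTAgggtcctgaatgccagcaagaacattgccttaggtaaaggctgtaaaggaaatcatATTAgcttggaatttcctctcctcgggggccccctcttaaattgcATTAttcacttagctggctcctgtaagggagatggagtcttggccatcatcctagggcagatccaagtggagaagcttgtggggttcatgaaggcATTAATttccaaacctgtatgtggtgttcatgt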

How the data were processed

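DRG RNA was sequenced for 3 control and 3 Tlx3cko libraries, and the authors deposited raw read counts per gene without normalization. The submitters' processing notes name STAR 2.5.2a and mm10; the counting program, its annotation and its use of strand are not given in the sources used here. Of 47937 rows, 47729 carry Ensembl identifiers and 208 are other loci, and 47224 matched a symbol in GENCODE M21. R 4.3.3 with edgeR 4.0.16 (TMM, glmQLFit, glmQLFTest, Benjamini-Hochberg) tested 20006 genes (10 counts or more in total), at adjusted p under 0.05. SE was the log2 fold change divided by the root of F. DESeq2 1.42.0, limma-voom 3.58.1, other scalings and filters, a replicate block, a sex term and leaving out each library were alternatives. Exon lengths are unions of annotated exons. RefSeq promoter windows were kept for 8 members. Windows on chromosome 18, which holds Htr4, were left out, as were windows wholly inside the annotated gene. Htr3a and Htr4 therefore have no window here, which does not show that RefSeq lacks them. Named genes were Tlx3, all serotonin receptor genes, Xist and Ddx3y, called or most abundant genes of each list, defining markers and the 5 nearest profiles. Some marker genes are not reported here and stay out of the counts and sums of their lists. Members and lists were chosen with earlier results of these data known.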

Additional observations from a re-analysis of the deposited data

How the results depend on the processing

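The fall of Htr1a and Htr4 passed the threshold in all 15 alternative fits, and that of Htr1f in 13. The sex term fit among them sets 1 male control against the 3 Tlx3cko libraries. The count of members that fell was 3 in each alternative except where 1 library was left out, where it was 2 to 3, and the count that rose was 0 throughout. Genes lower in Tlx3cko numbered 512, against 858 without the count filter, 334 with the sex term and 309 to 528 with 1 library left out (309 without Tlx3cko replicate 2, 340 without Tlx3cko replicate 3). Genes higher numbered 339, against 671, 153 and 176 to 431 (182 without control replicate 2, 179 without Tlx3cko replicate 2, 176 without Tlx3cko replicate 3). The cause was not tested.

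Signs turned only in genes without a call. The log2 fold change of Htr2a was -0.0064 with library totals, -0.00045 without the filter, -0.22 with the sex term, -0.18 without control replicate 2 and -0.017 without Tlx3cko replicate 1 (range over left-out libraries -0.18 to 0.13). Htr2b was 0.0117 with the sex term, and Htr2c was -0.13 without control replicate 2 (range -0.13 to 1.68). Htr5b passed the threshold without the filter (adjusted p = 0.0237). The control level of Htr1d per kilobase was 189 by the longest transcript (171 by all exons), and that of Htr2c 1.49 (0.778), within its spread.

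Libraries of the same replicate number did not deviate together (r across 13373 genes -0.139, -0.00357 and -0.121), so the numbers were not read as pairs. With the replicate block 462 genes were lower and 308 higher, with 3 members lower and 0 higher. Depth limits Htr2b, Htr2c and Htr6, whose counts were at most 16.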
